A study of Homo sapiens with 12 samples.

Results

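The genes of the interferon response and of JAK-STAT signalling were followed in A375 cells, an established human melanoma line with a mutated BRAF kinase, grown in medium with fetal bovine serum. Membership was decided by gene symbol alone (the families IFI, IFIT, ISG, OAS, GBP, IRF, STAT, JAK, SOCS, PIAS, APOL and others, and single genes such as BST2, NLRC5 and NMI), so no measured value enters the rule, although the set was chosen with earlier results of these data known. Of the 8579 genes in the count table, 66 met the rule. The spelling also takes in genes of unlike function, such as IFITM10 and APOLD1. Cells had 72 h with SEL201 at 2.5 µM, an inhibitor of the kinases MNK1 and MNK2 that phosphorylate the translation factor eIF4E, with OTX015 at 50 nM, an inhibitor of the BET bromodomain proteins that read acetylated chromatin, with both agents (COMBO), or with neither (titled UNTREATED, with DMSO, the solvent, as the treatment label). There were 3 libraries for every treatment, numbered 1 to 3, from stranded poly(A) RNA. The data come from 1 cell line, the labels name no added interferon, and they do not say that the replicates were separate cultures, so p-values reflect library-to-library variation that may be only technical.

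Type I interferons bind the receptor chains IFNAR1 and IFNAR2, and interferon gamma binds IFNGR1 and IFNGR2. The receptors activate the kinases JAK1, JAK2 and TYK2, which phosphorylate STAT factors. A complex that holds STAT2 and IRF9 binds the interferon-stimulated response element (ISRE), while STAT dimers bind the gamma-activated sequence (GAS). The induced genes encode sensors of foreign RNA, enzymes and membrane proteins that block viral growth, ubiquitin-like modifiers, and feedback inhibitors such as SOCS1, SOCS3 and USP18. Melanoma cells can keep part of this set switched on without added interferon. IFNAR1, IFNGR2, JAK1, TYK2, STAT3 and IRF9 were not analysed here.

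Promoter windows of RefSeq (GRCh38.p14, 250 bases before to 50 bases after a transcription start) were found for 47 of the 66 members, 1 of them through the newer symbol of DDX58, RIGI. The 8 stretches below are examples that carry the ISRE letters. They come from 6 of the 20 members with the letters that fell with COMBO, and from the 2 that rose. BST2 and GBP3, at COMBO log2 changes of -1.81 and -1.74, carry the letters too and are not shown. The stretches are written 5′ to 3′ on the strand of the gene, with the letters GAAANNGAAA or their reverse complement in capitals. The runs of capitals in IFIH1 and ISG15 are each made of 2 overlapping matches.
IFI44: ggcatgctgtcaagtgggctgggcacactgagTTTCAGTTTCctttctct
ISG20: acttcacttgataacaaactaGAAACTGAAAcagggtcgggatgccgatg
GBP1: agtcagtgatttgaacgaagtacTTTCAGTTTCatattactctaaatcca
IFIH1: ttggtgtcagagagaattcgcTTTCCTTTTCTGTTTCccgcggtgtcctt
IFIT1: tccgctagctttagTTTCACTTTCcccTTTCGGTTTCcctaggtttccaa
ISG15: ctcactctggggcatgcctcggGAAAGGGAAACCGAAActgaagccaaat
SOCS1: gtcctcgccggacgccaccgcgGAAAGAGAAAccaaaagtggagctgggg
IFI6: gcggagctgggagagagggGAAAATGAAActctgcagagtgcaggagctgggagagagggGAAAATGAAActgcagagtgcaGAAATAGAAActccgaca
On the plus strand, the stretch of IFI44 lies at chr1:78649739-78649788, that of ISG20 at chr15:88638926-88638975, that of IFIT1 at chr10:89392493-89392542 and that of ISG15 at chr1:1013362-1013411. On the minus strand, GBP1 is at chr1:89065309-89065358, IFIH1 at chr2:162318815-162318864, SOCS1 at chr16:11256290-11256339 and IFI6 at chr1:27672268-27672367. All 8 lie before the transcription start of the RefSeq transcript. In GBP3, MX1 and TRIM21, which are not shown, a match lies after the start. The IFI6 stretch holds 3 matches, and 2 of them stand in a repeated sequence.

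ISRE letters on either strand were present in at least 1 window of 23 of the 47 members (48.9%), against 230 of 6046 genes of the count table with a window (3.8%) and 1255 of all 35116 windows (3.57%). Since the members were named as interferon genes, this share is a description of the choice. Among the members, the letters were present in 20 of the 33 that fell with COMBO (60.6%), 2 of the 8 that rose (25.0%, SOCS1 and IFI6) and 1 of the 6 that did not pass the test (TRIM5). With the letters, the median log2 change in COMBO against UNTREATED was -0.79 (n = 23), and without them it was -0.20 (n = 24). The members without them still reached -1.33 (OAS1). They include IFNGR1, JAK2, PIAS2 and STAT2 as well as effectors, so this split does not separate the letters from the role of a member. In OTX015 the same medians were -0.57 and -0.12, and in SEL201 they were -0.24 and -0.06, against the same UNTREATED libraries. GAS letters (TTCNNNGAA, the same on both strands) were present in 11 members (23.4%), 9.15% of the genes of the table and 7.66% of all windows. An ISRE match and a GAS match overlap in BST2 and in MX1. A match in these letters is no measure of binding, and 14 of the 47 members have more than 1 window.

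**Figure D1:**
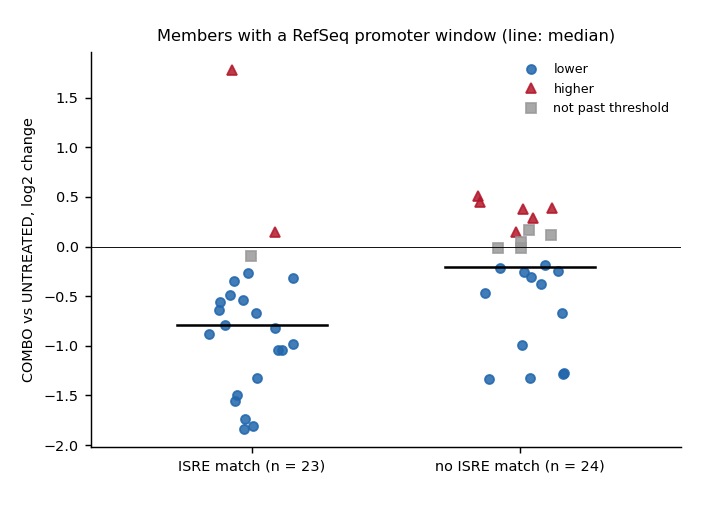
Log2 change in COMBO against UNTREATED (vertical axis) of the 47 members with a RefSeq promoter window, split by whether a window holds ISRE letters. Each point is 1 member, its shape and colour give the edgeR call, and the lines are the medians of -0.79 and -0.20. The 2 triangles on the left are SOCS1 and IFI6. The split does not separate the letters from the role of a member.

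Column totals over the genes of the table ran from 15146071 to 24111541. They leave out other genes and are not the sequencing depth, so CPM (counts scaled to a fixed total per library) is relative to these genes. Libraries of the same number deviated together from their group means, and a fit with the number as a block (the replicate block), which calls more genes in general, is given for the member counts it moves by over 1.5 times and beside the values it takes past the threshold among those printed. Summed over the 7 measured markers of the melanocyte lineage and melanoma (of 11), UNTREATED libraries were at 682 to 746 CPM, those with SEL201 at 544 to 569, those with OTX015 at 531 to 557 and those with both agents at 503 to 506. LYZ, the 1 measured haematopoietic marker of 5, was at 39.2 to 50.2, 29.3 to 32.4, 21.3 to 24.3 and 19.5 to 22.6 CPM in the same order. The 3 measured fibroblast markers of 4 (DCN, LUM and PDGFRA) summed to 62.2 to 85.5, 47.4 to 59.7, 37 to 38.1 and 32.4 to 38.9 CPM. None of these 11 genes was at 0 in any library, and the 3 endothelial markers were not analysed here. All 3 sums move with treatment as the members do, and their part in the results was not tested. The labels name only A375 cells. In bulk RNA, fewer cells expressing a gene and less of its RNA per cell cannot be told apart.

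Most of the interferon genes fell with OTX015 and with COMBO, a smaller number fell with SEL201, and a few regulators of the pathway rose. Against UNTREATED at an edgeR adjusted p under 0.05, COMBO had 47 members lower (71.2%, against 29.6% of all genes tested) and 10 higher (15.2%, against 28.3%). OTX015 had 46 lower (69.7%, against 24.7%) and 8 higher (12.1%, against 23.3%). SEL201 had 20 lower (30.3%, against 11.1%) and 3 higher (4.55%, against 10.1%). The lower share was thus above that of all genes in each comparison and the higher share below it. The median log2 change over the 66 members was -0.49 in COMBO, -0.46 in OTX015 and -0.16 in SEL201, where the median over all genes was 0.0. The 3 comparisons share the UNTREATED libraries.

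**Figure D2:**
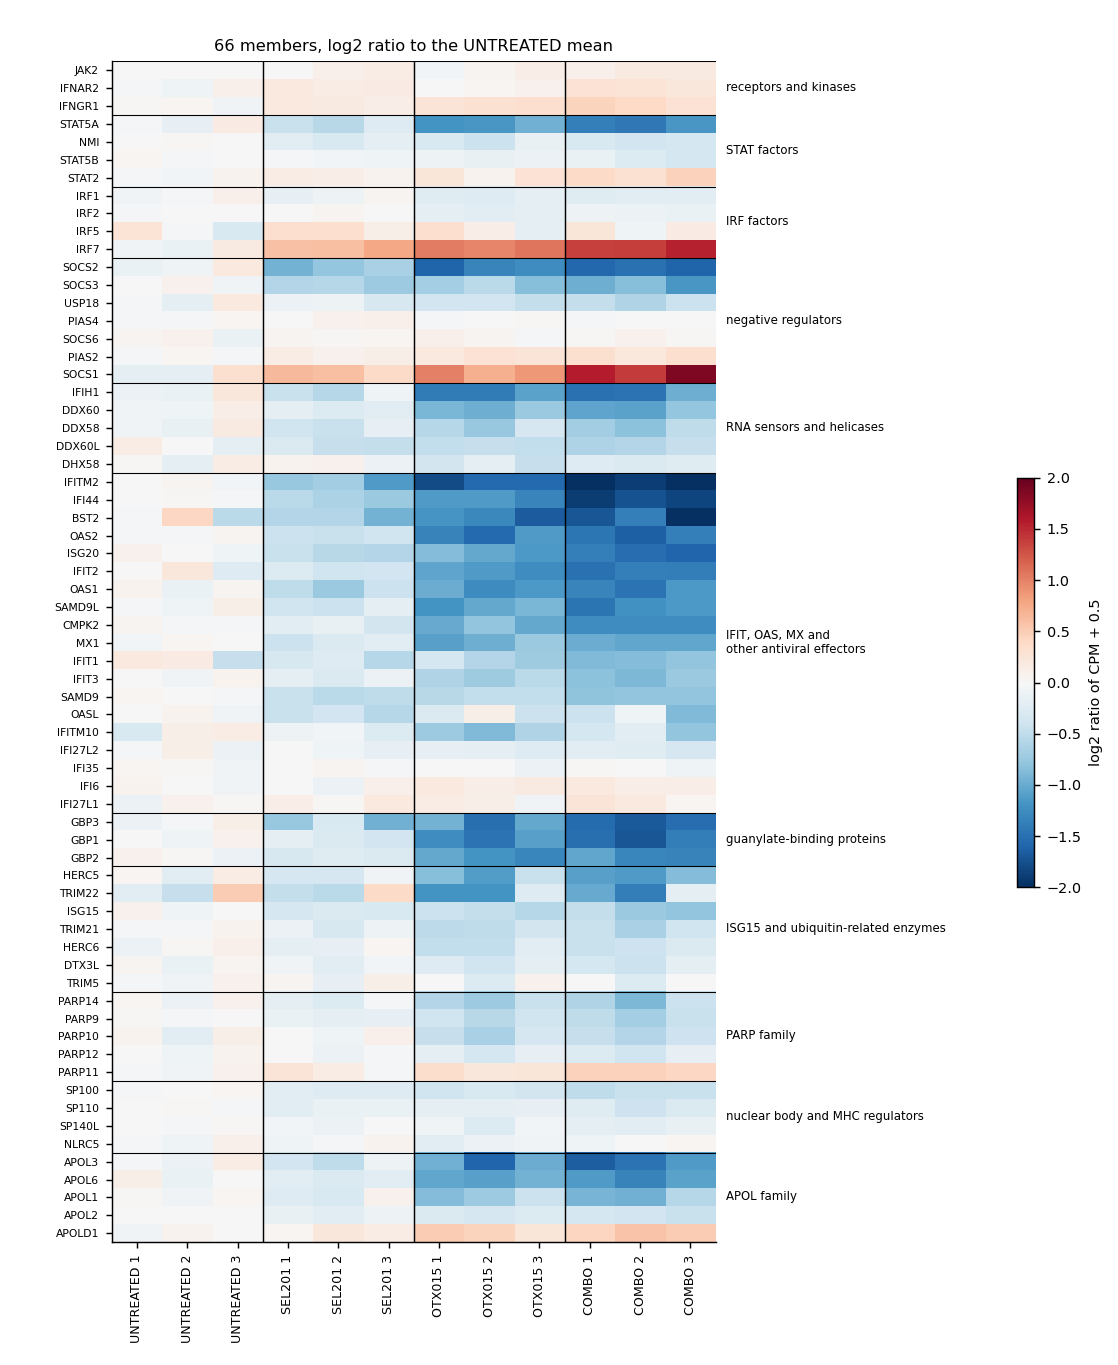
Log2 ratio of each member's CPM + 0.5 to its UNTREATED mean (colour) in the 12 libraries (columns), with the 66 members (rows) grouped by role. Blue covers most rows under OTX015 and COMBO, and the red rows are led by SOCS1 and IRF7.

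Library by library, the median log2 ratio of the 66 members to the UNTREATED mean ran from -0.02 to 0.04 for UNTREATED, -0.23 to -0.11 for SEL201, -0.48 to -0.38 for OTX015 and -0.59 to -0.44 for COMBO. The groups did not overlap except where OTX015 reached into the range of COMBO. Without the 4 libraries numbered 3, COMBO had 45 members lower and 8 higher, OTX015 45 and 7, and SEL201 23 and 6. The share of all genes in that fit was not computed, so a shift of the members alone cannot be read from these counts. Of the COMBO calls, 45 of the 47 lower and 8 of the 10 higher held in each fit that left out 1 library. Those lost were DHX58, IFITM10, IFI6 and JAK2, and for OTX015, 42 of 46 and 7 of 8 held, with DHX58, IFI27L2, IFIT1, STAT5B and IFI6 lost. The values of these calls follow with their groups.

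**Figure D3:**
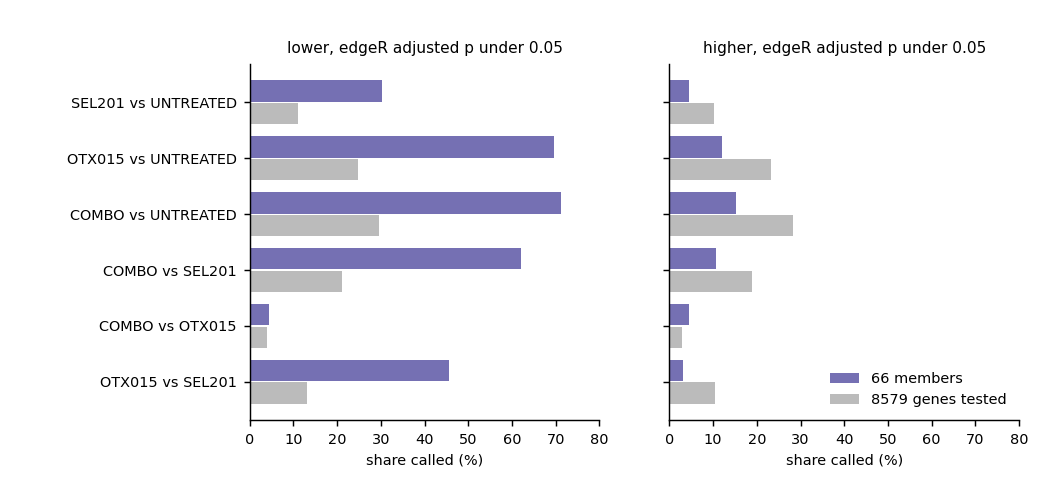
Share of the 66 members (purple) and of the 8579 genes tested (grey) called lower (left) and higher (right) in 6 comparisons, in percent. In COMBO against UNTREATED, 71.2% of members and 29.6% of all genes were lower.

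Of the comparisons with UNTREATED, that of SEL201 gave the fewest calls. Many did not survive leaving out a library in the fit without the replicate block. DDX60L, IFI44, IFITM2, ISG20, OAS1, OAS2, SAMD9, SOCS2, SOCS3, SP100 and STAT5A were lower, and IRF7 higher, in every fit that left out 1 library. The other 11 calls each failed in some of these fits. IFNGR1 was lost without UNTREATED 3, SEL201 1 or SEL201 2 (edgeR adjusted p 0.065 to 0.096), and SOCS1 without UNTREATED 1, UNTREATED 2, SEL201 1 or SEL201 2 (0.094 to 0.13). ISG15 was lost without UNTREATED 1 or SEL201 1 (0.066 to 0.081), and MX1 without UNTREATED 2 or SEL201 1 (0.071 to 0.097). ISG15 encodes a ubiquitin-like modifier and MX1 an antiviral GTPase. SAMD9L was lost without UNTREATED 1, UNTREATED 3, SEL201 1 or SEL201 2 (0.057 to 0.11), APOL2 without UNTREATED 1, UNTREATED 2, SEL201 1 or SEL201 2 (0.055 to 0.075), and GBP3 without UNTREATED 2, UNTREATED 3, SEL201 1 or SEL201 3 (0.051 to 0.083). NMI failed without any library but SEL201 3 (0.052 to 0.096), GBP2 without any but UNTREATED 3 (0.063 to 0.13), APOL6 without any but UNTREATED 2 (0.054 to 0.13) and SP110 without any of the 6 (0.056 to 0.15). The number of lower members was 13 without UNTREATED 1 and 11 without SEL201 1, and the number of higher members was 1 without SEL201 1 or SEL201 2. The shares of all genes in these fits were not computed. The replicate block gave 36 lower (54.5%, against 19.1% of all genes in that fit) and 6 higher (9.09%, against 18.0%). With the block and all libraries, the 11 calls lost above all passed the threshold. Their edgeR adjusted p ran from 5.5e-05 (APOL6) to 0.0086 (SP110). Leaving out a library was not run with the block.

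Receptor chains and a kinase were the only role group in which all measured members rose with COMBO, 3 of 3. With COMBO, 28.3% of all genes tested rose. The group is small, and the call of JAK2 did not hold in every fit that left out 1 library. IFNGR1, the ligand-binding chain for interferon gamma, read 154, 155 and 145 CPM in UNTREATED, 174, 171 and 165 in SEL201, 181, 187 and 191 in OTX015 and 207, 199 and 185 in COMBO. All 9 treated libraries were above all 3 UNTREATED libraries. Its log2 change was 0.38 (SE 0.05, edgeR adjusted p = 1.4e-05) in COMBO, 0.30 (SE 0.05, edgeR adjusted p = 0.00019) in OTX015 and 0.17 (SE 0.05, edgeR adjusted p = 0.026) in SEL201, the last not stable to leaving out a library. IFNAR2, a chain of the type I receptor, read 66.7, 63.9 and 72.8 CPM in UNTREATED, 77.3, 75.3 and 76 in SEL201, 67.8, 69.6 and 72 in OTX015 and 83.3, 81.8 and 79.6 in COMBO. The COMBO libraries were above all others of this gene, and those of OTX015 lay within the UNTREATED range. It rose in COMBO by 0.27 log2 units (SE 0.06, edgeR adjusted p = 0.0018), while the OTX015 log2 change was 0.04 (adjusted p = 0.6) and the SEL201 change 0.17 (adjusted p = 0.067, or 0.019 with the replicate block and 0.027 without UNTREATED 3). JAK2, the kinase that interferon gamma and many cytokine receptors use, read 167, 166 and 164 CPM in UNTREATED, 166, 178 and 184 in SEL201, 160, 173 and 181 in OTX015 and 178, 188 and 187 in COMBO. COMBO and UNTREATED did not overlap. Its COMBO log2 change of 0.15 (SE 0.05, edgeR adjusted p = 0.023) was past the threshold, but not without UNTREATED 2, UNTREATED 3, COMBO 2 or COMBO 3 (adjusted p 0.052 to 0.074).

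Of the STAT factors and their partner NMI, 3 of 4 fell with COMBO and with OTX015, and STAT2 rose. The shares of all genes tested were 29.6% and 24.7% lower, and 28.3% and 23.3% higher, in the same order. STAT5A, a STAT used by growth hormone, prolactin and interleukin receptors, was the most changed. It read 291, 266 and 334 CPM in UNTREATED, 219, 201 and 249 in SEL201, 130, 132 and 152 in OTX015 and 114, 110 and 133 in COMBO. The OTX015 and COMBO libraries overlapped and lay below those of SEL201, which lay below UNTREATED. The log2 change was -1.32 (SE 0.10, edgeR adjusted p = 6.9e-08) in COMBO, -1.11 (SE 0.10, edgeR adjusted p = 7.7e-07) in OTX015 and -0.41 (SE 0.10, edgeR adjusted p = 0.0078) in SEL201. STAT5B, its close homologue, changed by -0.25 log2 units in COMBO (adjusted p = 0.00049) and -0.12 in OTX015 (adjusted p = 0.048, lost without any library but UNTREATED 2, at 0.064 to 0.17). STAT2, a member of the ISRE-binding complex, read 268, 263 and 286 CPM in UNTREATED, 301, 299 and 287 in SEL201, 322, 287 and 335 in OTX015 and 357, 338 and 375 in COMBO. Every treated library was above every UNTREATED library. STAT2 rose by 0.39 log2 units (SE 0.06, edgeR adjusted p = 4.4e-05) in COMBO and 0.21 (SE 0.06, edgeR adjusted p = 0.0079) in OTX015, and its SEL201 log2 change was 0.12 (adjusted p = 0.16, or 0.017 with the replicate block). NMI, a protein that binds STAT factors, read 129, 132 and 129 CPM in UNTREATED, 113, 105 and 115 in SEL201, 105, 96.3 and 118 in OTX015 and 105, 99.6 and 102 in COMBO. No treated library reached an UNTREATED one. NMI changed by -0.35 log2 units (SE 0.07, edgeR adjusted p = 0.00046) in COMBO and -0.29 (SE 0.07, edgeR adjusted p = 0.0023) in OTX015.

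Among the 4 measured interferon regulatory factors, IRF7 rose and IRF1 and IRF2 fell slightly. With COMBO, 28.3% of all genes tested rose and 29.6% fell. IRF7, itself an interferon-induced gene and a driver of interferon alpha transcription, read 43.1, 41.4 and 51.3 CPM in UNTREATED, 68.3, 68.6 and 77.9 in SEL201, 92, 89.2 and 95.3 in OTX015 and 118, 119 and 132 in COMBO. The 4 groups followed each other without overlap, in the order UNTREATED, SEL201, OTX015, COMBO. The log2 change was 0.66 (SE 0.09, edgeR adjusted p = 0.00011) in SEL201, 1.03 (SE 0.09, edgeR adjusted p = 3.7e-07) in OTX015 and 1.44 (SE 0.09, edgeR adjusted p = 6.1e-09) in COMBO, 2.72-fold. IRF1, an activator induced by interferon gamma, read 219, 223 and 246 CPM in UNTREATED, 204, 213 and 237 in SEL201, 193, 192 and 200 in OTX015 and 194, 199 and 198 in COMBO. OTX015 and COMBO lay below UNTREATED, and SEL201 overlapped it. IRF1 changed by -0.23 log2 units (SE 0.06, edgeR adjusted p = 0.004) in OTX015 and -0.22 (SE 0.06, edgeR adjusted p = 0.0048) in COMBO. IRF2, which can compete with IRF1 for DNA, read 272, 278 and 278 CPM in UNTREATED, 277, 288 and 275 in SEL201, 242, 238 and 241 in OTX015 and 257, 254 and 251 in COMBO. OTX015 was the lowest group, COMBO lay between it and UNTREATED, and SEL201 overlapped UNTREATED. It changed by -0.20 log2 units (SE 0.03, edgeR adjusted p = 0.00032) in OTX015 and -0.12 (SE 0.03, edgeR adjusted p = 0.0086) in COMBO, and the latter was lost without all libraries numbered 3 (adjusted p = 0.067). IRF5, measured at 6.3 to 10.1 CPM with all groups overlapping, was at a log2 change of 0.12 in COMBO (adjusted p = 0.61).

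The negative regulators divided: with COMBO, SOCS1 and PIAS2 rose, SOCS2, SOCS3 and USP18 fell, and PIAS4 and SOCS6 were not past the threshold. With COMBO, 28.3% of all genes tested rose and 29.6% fell, so 2 rises among 7 members are near the share of all genes. SOCS proteins are induced by STAT factors and shut down JAK kinases. SOCS1, the strongest inhibitor of interferon signalling among them, read 2.62, 2.66 and 3.97 CPM in UNTREATED, 5.1, 4.91 and 4.15 in SEL201, 6.7, 5.38 and 6.05 in OTX015 and 10.2, 8.97 and 12.6 in COMBO. The groups rose in the same order as IRF7, with no overlap. Its log2 change was 0.63 (SE 0.20, edgeR adjusted p = 0.037) in SEL201, 0.98 (SE 0.20, edgeR adjusted p = 0.00092) in OTX015 and 1.78 (SE 0.19, edgeR adjusted p = 2.1e-06) in COMBO, 3.43-fold, at counts that were as low as 61 in a library. SOCS2, a target of STAT5 that restrains growth hormone signalling, read 51.3, 52.8 and 64.1 CPM in UNTREATED, 28.9, 32.5 and 35.5 in SEL201, 18.2, 22.1 and 23.5 in OTX015 and 18.5, 19.6 and 18.1 in COMBO. SEL201 lay below UNTREATED, and OTX015 and COMBO lay below SEL201 and overlapped each other. SOCS2 changed by -0.80 log2 units (SE 0.11, edgeR adjusted p = 0.00023) in SEL201, -1.40 (SE 0.12, edgeR adjusted p = 3.6e-07) in OTX015 and -1.58 (SE 0.12, edgeR adjusted p = 5.6e-08) in COMBO. SOCS3, the inhibitor of signalling through the interleukin 6 receptor chain gp130, read 143, 152 and 137 CPM in UNTREATED, 95.5, 97 and 87.1 in SEL201, 89.4, 98.8 and 79.8 in OTX015 and 72.8, 79.8 and 64.3 in COMBO. The SEL201 and OTX015 libraries overlapped, both lay below UNTREATED, and COMBO was the lowest, meeting OTX015 at 79.8 CPM. Its log2 change was -0.63 (SE 0.09, edgeR adjusted p = 0.0002) in SEL201, -0.69 (SE 0.09, edgeR adjusted p = 1.9e-05) in OTX015 and -0.99 (SE 0.09, edgeR adjusted p = 3.3e-07) in COMBO. USP18, which removes ISG15 from proteins and blocks IFNAR2, changed by -0.51 log2 units in COMBO (adjusted p = 0.0004). PIAS2, a SUMO ligase that binds STAT factors, changed by 0.29 log2 units (adjusted p = 3.8e-05).

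**Figure D4:**
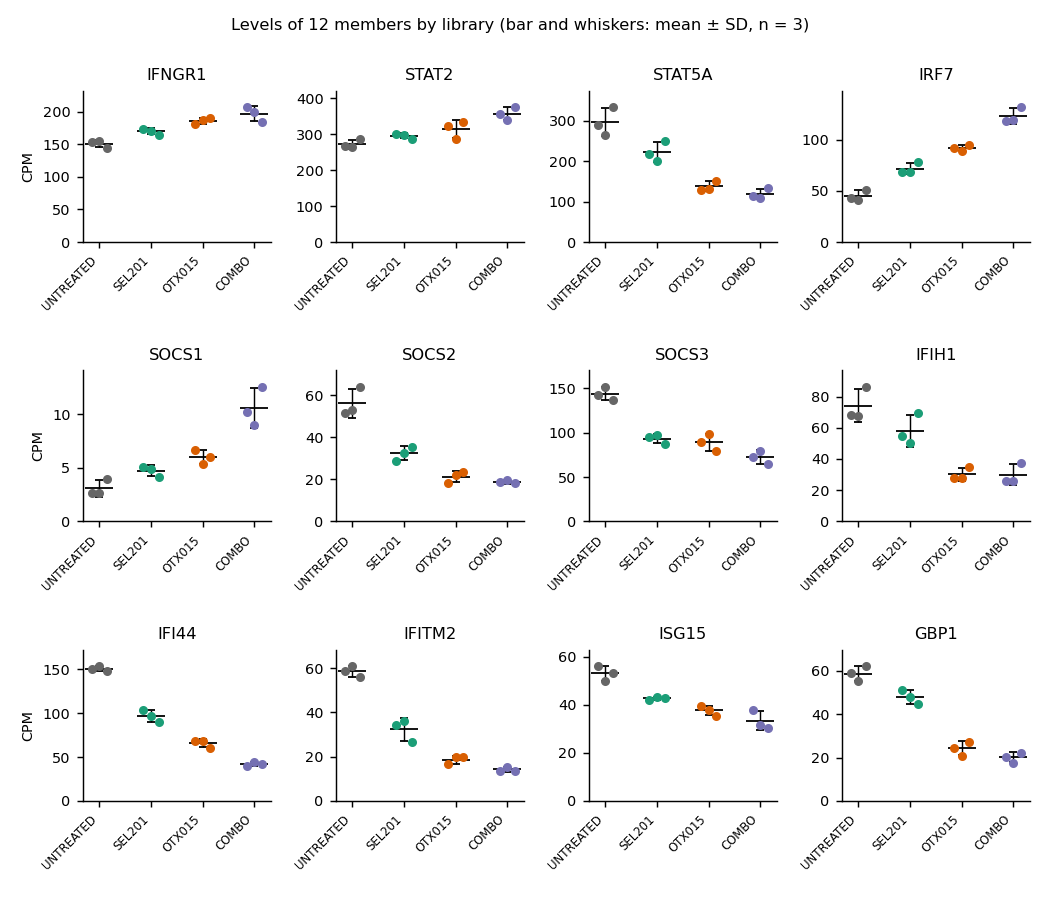
CPM (vertical axes, from 0) of 12 members in the 4 groups. Each point is 1 library, in number order from left to right, with the mean and SD (n = 3). IRF7 and SOCS1 climb from UNTREATED to COMBO, from 45.2 to 123 and from 3.08 to 10.6 CPM on average, and IFI44 falls from 151 to 42.3.

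All 5 RNA sensors and helicases fell with COMBO and with OTX015, where 29.6% and 24.7% of all genes tested were lower. IFIH1, or MDA5, senses long double-stranded RNA in the cytoplasm, and it read 68.4, 67.5 and 86.4 CPM in UNTREATED, 54.5, 50 and 69.5 in SEL201, 27.9, 27.6 and 35 in OTX015 and 25.9, 26.2 and 37.5 in COMBO. SEL201 overlapped UNTREATED, OTX015 and COMBO lay below both, and number 3 was the highest library in every group. IFIH1 changed by -1.29 log2 units (SE 0.16, edgeR adjusted p = 1.7e-05) in OTX015 and -1.32 (SE 0.16, edgeR adjusted p = 8.1e-06) in COMBO, and its SEL201 log2 change was -0.35 (adjusted p = 0.13, or 4.8e-05 with the replicate block and 0.045 without SEL201 3). DDX58, or RIG-I, the sensor of RNA with a 5′ triphosphate, read 87.7, 83.2 and 105 CPM in UNTREATED, 69.8, 67.3 and 81.8 in SEL201, 61.7, 54.2 and 72.5 in OTX015 and 56.6, 51.8 and 64.4 in COMBO. Treated and UNTREATED libraries did not overlap. DDX58 changed by -0.55 log2 units (SE 0.12, edgeR adjusted p = 0.0017) in OTX015 and -0.67 (SE 0.12, edgeR adjusted p = 0.00024) in COMBO, and with SEL201 its log2 change was -0.33 (adjusted p = 0.063, or 1.5e-05 with the block and 0.035 without SEL201 3). DDX60, a helicase linked to RIG-I signalling, read 47.3, 46.8 and 54.8 CPM in UNTREATED, 43.6, 40.9 and 42.8 in SEL201, 26.1, 25 and 29.5 in OTX015 and 23.5, 23.4 and 28.7 in COMBO. OTX015 and COMBO overlapped each other and lay below SEL201, and SEL201 below UNTREATED. It changed by -0.88 log2 units (SE 0.10, edgeR adjusted p = 6e-06) in OTX015 and -0.98 (SE 0.10, edgeR adjusted p = 1.2e-06) in COMBO, and its SEL201 log2 change was -0.23 (adjusted p = 0.12, or 0.017 with the block). The paralog DDX60L changed by -0.56 log2 units in COMBO (adjusted p = 8.2e-05). DHX58, or LGP2, a regulator of both sensors, changed by -0.27 log2 units (adjusted p = 0.037), a call lost without UNTREATED 1, UNTREATED 3 or any 1 of the COMBO libraries (0.059 to 0.16). In OTX015 it changed by -0.34 log2 units (adjusted p = 0.013, lost without UNTREATED 3 or OTX015 3, at 0.059 to 0.066).

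Antiviral effectors made up the largest role group, 19 members, of which 15 fell and 1 rose with COMBO, and the same counts held for OTX015. Over all genes tested, 29.6% fell and 28.3% rose with COMBO, and 24.7% and 23.3% with OTX015. IFITM2, a membrane protein that hinders viral entry, had the largest fall of all members and read 58.6, 61 and 56.1 CPM in UNTREATED, 34.5, 35.9 and 26.5 in SEL201, 16.5, 19.6 and 19.6 in OTX015 and 13.7, 15.5 and 13.4 in COMBO. The 4 groups did not overlap. Its close homologues IFITM1 and IFITM3 were not analysed here. The log2 change of IFITM2 was -0.85 (SE 0.11, edgeR adjusted p = 0.00012) in SEL201, -1.66 (SE 0.11, edgeR adjusted p = 7.5e-08) in OTX015 and -2.04 (SE 0.12, edgeR adjusted p = 4.8e-09) in COMBO, 4.12-fold lower. IFI44, a cytoplasmic interferon-induced protein, read 151, 154 and 148 CPM in UNTREATED, 104, 97.3 and 90.2 in SEL201, 68.3, 68.4 and 60.4 in OTX015 and 40.3, 44.8 and 41.7 in COMBO. Its 4 groups were also apart from each other. IFI44 changed by -0.64 log2 units (SE 0.07, edgeR adjusted p = 2.8e-05) in SEL201, -1.20 (SE 0.07, edgeR adjusted p = 1.7e-08) in OTX015 and -1.84 (SE 0.07, edgeR adjusted p = 1.4e-10) in COMBO, 3.57-fold lower. BST2, or tetherin, which holds budding virus at the cell surface, read 21.6, 29.2 and 14.9 CPM in UNTREATED, 14.4, 14.4 and 11.1 in SEL201, 9.39, 8.67 and 6.61 in OTX015 and 6.33, 8.23 and 3.9 in COMBO. Its UNTREATED libraries were spread, from 14.9 to 29.2 CPM, yet lay above all treated ones. BST2 changed by -1.42 log2 units (SE 0.25, edgeR adjusted p = 0.00039) in OTX015 and -1.81 (SE 0.26, edgeR adjusted p = 3.7e-05) in COMBO, and its SEL201 log2 change was -0.72 (adjusted p = 0.053, or 6.4e-05 with the replicate block and 0.013 without UNTREATED 3).

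The other effectors were lower by similar or smaller amounts in COMBO. OAS1 and OAS2, which make the 2′-5′ oligoadenylates that activate RNase L, changed by -1.33 log2 units and -1.51 (adjusted p = 1.5e-07 and 3.8e-08). ISG20, a nuclease that degrades single-stranded RNA, changed by -1.49 log2 units (SE 0.08, edgeR adjusted p = 1.9e-09), from 264 to 298 CPM in UNTREATED to 92.6 to 109 CPM. The IFIT proteins bind viral RNA, and IFIT1, IFIT2 and IFIT3 changed by -0.88 log2 units, -1.48 and -0.82 (adjusted p = 0.00042, 3.9e-07 and 2.2e-07). MX1, a GTPase that traps viral nucleocapsids, changed by -1.04 log2 units (adjusted p = 3e-07), and CMPK2, a nucleotide kinase gene, by -1.27 (adjusted p = 3.1e-08). The neighbours SAMD9 and SAMD9L, which restrict poxviruses, changed by -0.79 log2 units and -1.28 (adjusted p = 6.2e-10 and 1.7e-07). IFI27L2 changed by -0.26 log2 units (adjusted p = 0.0073).

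Several effectors stood apart from this fall. IFI6, a mitochondrial interferon-induced protein, was the 1 effector that rose with COMBO, by 0.15 log2 units (SE 0.06, edgeR adjusted p = 0.047), which was lost without UNTREATED 2, UNTREATED 3 or any 1 of the COMBO libraries (0.062 to 0.15). With OTX015 it changed by 0.17 log2 units (adjusted p = 0.033, lost without UNTREATED 2, UNTREATED 3, OTX015 1 or OTX015 3, at 0.074 to 0.11). IFITM10 changed by -0.44 log2 units in COMBO (adjusted p = 0.036, with overlapping groups), lost without UNTREATED 2, UNTREATED 3, COMBO 1 or COMBO 3 (0.054 to 0.14). IFI35 and IFI27L1 were not past the threshold, at log2 changes of -0.01 and 0.17 (adjusted p = 0.83 and 0.13). OASL, an OAS homologue without synthetase activity, was at a log2 change of -0.45 (adjusted p = 0.066, or 0.011 with the replicate block and 0.013 without COMBO 2). In OTX015, IFIT1 was at a log2 change of -0.57 (adjusted p = 0.011, with overlapping groups), lost without UNTREATED 1 or UNTREATED 2 (0.052 to 0.059), and IFI27L2 at -0.21 (adjusted p = 0.032), lost without UNTREATED 1, UNTREATED 2, OTX015 2 or OTX015 3 (0.063 to 0.15).

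The 3 guanylate-binding proteins, GTPases that attack the membranes of intracellular pathogens and that interferon gamma induces strongly, fell with COMBO and OTX015. In these 2 comparisons, 29.6% and 24.7% of all genes tested were lower. GBP1 read 58.9, 55.2 and 62.3 CPM in UNTREATED, 51.4, 48.1 and 44.9 in SEL201, 24.6, 20.9 and 27.3 in OTX015 and 20.4, 17.6 and 22.2 in COMBO. Its OTX015 and COMBO libraries were less abundant than any of SEL201, and no SEL201 library reached UNTREATED. GBP1 changed by -1.28 log2 units (SE 0.11, edgeR adjusted p = 4.4e-07) in OTX015 and -1.56 (SE 0.11, edgeR adjusted p = 3.3e-08) in COMBO, and its SEL201 log2 change was -0.29 (adjusted p = 0.066, or 0.0045 with the block). GBP2 read 89.3, 85.6 and 77.6 CPM in UNTREATED, 67, 70.7 and 68.5 in SEL201, 41.1, 36.4 and 33.8 in OTX015 and 40.7, 33.7 and 33 in COMBO. Here OTX015 and COMBO overlapped, and their log2 changes were -1.18 (SE 0.09, edgeR adjusted p = 2.6e-07) and -1.23 (SE 0.09, edgeR adjusted p = 8.4e-08). GBP3 read 8.36, 8.96 and 9.87 CPM in UNTREATED, 5.15, 7.26 and 4.39 in SEL201, 4.49, 2.87 and 4.22 in OTX015 and 2.8, 2.5 and 2.84 in COMBO. Its COMBO libraries were the lowest, and its log2 changes were -1.24 (SE 0.20, edgeR adjusted p = 0.00016) in OTX015 and -1.74 (SE 0.21, edgeR adjusted p = 6.4e-06) in COMBO.

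ISG15 and the genes of ubiquitin-related enzymes included 5 of 7 members that fell with COMBO and with OTX015. The lower shares of all genes tested were 29.6% and 24.7%. ISG15, a ubiquitin-like protein that is joined to newly made proteins and also secreted, read 56.1, 49.8 and 53.3 CPM in UNTREATED, 42, 43.2 and 42.9 in SEL201, 39.4, 37.9 and 35.4 in OTX015 and 37.9, 31.5 and 30.4 in COMBO. Each treated library was below each UNTREATED one. ISG15 changed by -0.50 log2 units (SE 0.09, edgeR adjusted p = 0.00031) in OTX015 and -0.67 (SE 0.09, edgeR adjusted p = 1.4e-05) in COMBO, and its SEL201 log2 change of -0.31 (adjusted p = 0.019) was lost without UNTREATED 1 or SEL201 1 (0.066 to 0.081). HERC5, the main ligase that attaches ISG15, read 68.3, 56.7 and 73.7 CPM in UNTREATED, 52.2, 52.6 and 63.2 in SEL201, 36.6, 30.1 and 48.6 in OTX015 and 30.8, 29.9 and 36.3 in COMBO. OTX015 and COMBO libraries lay below those of UNTREATED and SEL201. HERC5 changed by -0.79 log2 units (SE 0.15, edgeR adjusted p = 0.00067) in OTX015 and -1.04 (SE 0.15, edgeR adjusted p = 4.4e-05) in COMBO, while its SEL201 log2 change was -0.24 (adjusted p = 0.28, or 0.01 with the block). TRIM21, a cytoplasmic antibody receptor and ubiquitin ligase, read 96.7, 97 and 105 CPM in UNTREATED, 92.1, 79.4 and 92.7 in SEL201, 69.3, 69.5 and 76.6 in OTX015 and 73.2, 63.6 and 75.4 in COMBO. OTX015 and COMBO overlapped and lay below SEL201, which lay below UNTREATED. It changed by -0.47 log2 units (SE 0.08, edgeR adjusted p = 0.00027) in OTX015 and -0.49 (SE 0.08, edgeR adjusted p = 0.00012) in COMBO, with a SEL201 log2 change of -0.18 (adjusted p = 0.14, or 0.012 with the block). HERC6 and DTX3L, the ligase that works with PARP9, changed by -0.38 log2 units and -0.32 in COMBO (adjusted p = 0.0019 and 0.0023). TRIM5, a retroviral restriction factor, was at a log2 change of -0.09 (adjusted p = 0.45). TRIM22, at 3.14 to 13 CPM and highest in number 3 of every group, was at a log2 change of -0.86 (adjusted p = 0.069), past the threshold with the replicate block (1.1e-05) and without UNTREATED 2 (0.046) or COMBO 3 (0.017). In OTX015, TRIM22 was at a log2 change of -0.86 (adjusted p = 0.079, or 1.1e-05 with the block and 0.02 without OTX015 3).

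In the PARP family, enzymes that add ADP-ribose to proteins, 4 of 5 members fell with COMBO and with OTX015 and PARP11 rose. Among all genes tested, 29.6% and 24.7% fell in that order, and 28.3% and 23.3% rose. PARP14 read 459, 411 and 474 CPM in UNTREATED, 394, 371 and 439 in SEL201, 299, 269 and 329 in OTX015 and 294, 239 and 333 in COMBO. The COMBO and OTX015 libraries overlapped each other and lay below UNTREATED. PARP14 changed by -0.58 log2 units (SE 0.10, edgeR adjusted p = 0.00039) in OTX015 and -0.64 (SE 0.11, edgeR adjusted p = 0.00013) in COMBO, and its SEL201 log2 change was -0.16 (adjusted p = 0.32, or 0.0016 with the block). PARP9, the partner of DTX3L, read 170, 164 and 169 CPM in UNTREATED, 153, 146 and 150 in SEL201, 128, 115 and 128 in OTX015 and 119, 105 and 123 in COMBO. The order was UNTREATED, then SEL201, then OTX015 and COMBO, which overlapped. PARP9 changed by -0.45 log2 units (SE 0.06, edgeR adjusted p = 4.2e-05) in OTX015 and -0.54 (SE 0.06, edgeR adjusted p = 3.8e-06) in COMBO, with a SEL201 log2 change of -0.16 (adjusted p = 0.074, or 0.0043 with the block). PARP9 and DTX3L are transcribed away from each other, and their RefSeq windows share 137 bases. PARP10 read 321, 264 and 330 CPM in UNTREATED, 302, 288 and 328 in SEL201, 222, 195 and 242 in OTX015 and 221, 202 and 229 in COMBO. SEL201 and UNTREATED overlapped, and the log2 changes were -0.47 (SE 0.09, edgeR adjusted p = 0.00055) in OTX015 and -0.49 (SE 0.09, edgeR adjusted p = 0.0003) in COMBO. PARP12 changed by -0.27 log2 units in COMBO (adjusted p = 0.0023), and PARP11 by 0.45 (adjusted p = 0.00014), from 60.3 to 67.4 CPM in UNTREATED to 84.1 to 87.5 CPM.

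Of the 4 nuclear body proteins and MHC regulators, 3 fell with COMBO and 2 with OTX015, against 29.6% and 24.7% of all genes. SP100, a main component of nuclear bodies, read 354, 366 and 375 CPM in UNTREATED, 315, 306 and 304 in SEL201, 276, 294 and 283 in OTX015 and 256, 268 and 269 in COMBO. Each treated group was below UNTREATED, and SEL201 was above OTX015. SP100 changed by -0.25 log2 units (SE 0.04, edgeR adjusted p = 0.00057) in SEL201, -0.36 (SE 0.04, edgeR adjusted p = 4.5e-06) in OTX015 and -0.47 (SE 0.04, edgeR adjusted p = 2e-07) in COMBO. SP110 read 148, 150 and 146 CPM in UNTREATED, 128, 136 and 134 in SEL201, 130, 131 and 133 in OTX015 and 126, 112 and 122 in COMBO. No treated library of SP110 was as high as an UNTREATED one. SP110 changed by -0.18 log2 units (SE 0.05, edgeR adjusted p = 0.011) in OTX015 and -0.31 (SE 0.05, edgeR adjusted p = 0.00013) in COMBO. SP140L read 155, 152 and 158 CPM in UNTREATED, 149, 143 and 155 in SEL201, 147, 128 and 150 in OTX015 and 136, 132 and 140 in COMBO. COMBO and OTX015 lay below UNTREATED, which SEL201 overlapped. SP140L changed by -0.19 log2 units (SE 0.06, edgeR adjusted p = 0.013) in COMBO. With OTX015 SP140L was at a log2 change of -0.13 (adjusted p = 0.084, or 0.012 with the block and 0.044 without OTX015 3). NLRC5, the transactivator of MHC class I genes, was at a log2 change of -0.01 in COMBO (adjusted p = 0.89) and -0.13 in OTX015 (adjusted p = 0.11, or 0.019 with the block).

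All 4 apolipoprotein L genes fell with COMBO and with OTX015, and APOLD1, which shares their name and part of their sequence, rose. The shares of all genes tested were 29.6% and 24.7% lower, and 28.3% and 23.3% higher. APOL6 read 275, 232 and 257 CPM in UNTREATED, 221, 208 and 217 in SEL201, 124, 119 and 131 in OTX015 and 116, 101 and 121 in COMBO. The OTX015 and COMBO libraries overlapped and lay far below those of SEL201. APOL6 changed by -1.03 log2 units (SE 0.07, edgeR adjusted p = 9.1e-08) in OTX015 and -1.18 (SE 0.07, edgeR adjusted p = 1e-08) in COMBO. APOL3 read 18.9, 17.9 and 21.7 CPM in UNTREATED, 14.8, 13.6 and 18.2 in SEL201, 9.76, 6.16 and 9.55 in OTX015 and 5.86, 6.7 and 8.6 in COMBO. SEL201 overlapped UNTREATED, and the 2 other groups lay below both. APOL3 changed by -1.20 log2 units (SE 0.18, edgeR adjusted p = 0.00011) in OTX015 and -1.48 (SE 0.19, edgeR adjusted p = 1.1e-05) in COMBO, with a SEL201 log2 change of -0.33 (adjusted p = 0.22, or 0.033 with the block). APOL1, the secreted trypanosome-killing member, read 29.3, 27.3 and 29.7 CPM in UNTREATED, 24.1, 23.2 and 30.4 in SEL201, 15.6, 17.3 and 21.2 in OTX015 and 14.9, 14.5 and 19.3 in COMBO. The OTX015 and COMBO libraries were below all others, with number 3 the highest in each group. APOL1 changed by -0.67 log2 units (SE 0.14, edgeR adjusted p = 0.0012) in OTX015 and -0.83 (SE 0.14, edgeR adjusted p = 0.00016) in COMBO. APOL2 changed by -0.39 log2 units in COMBO (adjusted p = 2.1e-06) and APOLD1 by 0.51 (adjusted p = 0.00045). Members of the APOL, GBP, IFIT, IFI27L, SAMD9, DDX60, SP100 and STAT5 groups resemble each other in sequence, and how reads that fit several genes were counted is not given in the sources used here, so the split between such paralogs is uncertain.

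Many members were lower with OTX015 than with SEL201. In OTX015 against SEL201, 30 members were lower (45.5%, against 13.1% of all genes tested) and 2 were higher (3.03%, against 10.4%), IRF7 by 0.37 log2 units (SE 0.08, edgeR adjusted p = 0.0063) and PIAS2 by 0.13 (SE 0.04, edgeR adjusted p = 0.036). PIAS2 was lost without any library but OTX015 1 (0.054 to 0.13), so that IRF7 alone was left without SEL201 1, SEL201 2 or OTX015 2. Higher members numbered 5 with the replicate block (7.58%, against 18.7% of all genes in that fit) and 4 with DESeq2 (6.06%, against 12%). The largest differences were GBP1 at -0.99 log2 units (adjusted p = 3e-05), IFIH1 at -0.94 (adjusted p = 0.001) and OAS2 at -0.93 (adjusted p = 5e-05). SAMD9 and SOCS3 fell with either agent, and the log2 difference of OTX015 against SEL201 was -0.02 (SE 0.04, edgeR adjusted p = 0.77) and -0.06 (SE 0.09, adjusted p = 0.66). Doses of the 2 agents differ, and their strength on their own targets was not measured here.

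More members passed the threshold when OTX015 was added to SEL201 than when SEL201 was added to OTX015. COMBO against SEL201 had 41 members lower (62.1%, against 21.2%) and 7 higher (10.6%, against 18.8%), with a median log2 change of -0.30. The 7 were SOCS1, IRF7, APOLD1, PARP11, STAT2, IFNGR1 and PIAS2, from 1.15 to 0.18 log2 units, and all 7, with 33 of the 41 lower members, held in each fit that left out 1 library. COMBO against OTX015 had 3 lower (4.55%, against 4.01%) and 3 higher (4.55%, against 2.9%), shares near those of all genes. IFI44 at -0.64 log2 units (SE 0.07, edgeR adjusted p = 0.00017), ISG20 at -0.48 (SE 0.08, edgeR adjusted p = 0.0023) and SAMD9 at -0.28 (SE 0.04, edgeR adjusted p = 0.00057) were lower, and held without any 1 library. SOCS1 at 0.80 log2 units (SE 0.18, edgeR adjusted p = 0.017), IRF7 at 0.42 (SE 0.08, edgeR adjusted p = 0.009) and IFNAR2 at 0.23 (SE 0.06, edgeR adjusted p = 0.043) were higher. SOCS1 was lost without OTX015 2 (0.076) or COMBO 3 (0.064), and IFNAR2 without any of the 6 libraries (0.067 to 0.14), so that 1 higher member was left without OTX015 2 or COMBO 3. With the replicate block, 16 were lower (24.2%, against 12.2% of all genes in that fit) and 5 higher (7.58%, against 10.0%), among them SOCS3 (6.5e-05), STAT5A (0.00028), IFITM2 (0.0047), GBP1 (0.022) and STAT2 (0.0011, higher) at these adjusted p-values. DESeq2 gave 6 lower (9.09%, against 5.46% of all genes).

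The interaction (the log2 change of COMBO less the log2 changes of SEL201 and OTX015 added together) was past the edgeR threshold for none of the 66 members, against 0.21% of all genes above 0 and 0.0699% below. At an unadjusted p under 0.05 there were 7 of the 66 members and 787 of the 8579 genes tested, which are similar shares. DESeq2 called 2, SAMD9 and SOCS2, both above 0 (3.03%, against 1.01% of all genes). The replicate block called 7 above 0 (10.6%, against 4.02% of all genes in that fit) and 1 below (1.52%, against 2.73%). Above 0, with a COMBO change smaller in size than the sum of 2 changes below 0, were SOCS2 (0.61, block adjusted p = 0.00079), IFITM2 (0.47, 0.027), OAS1 (0.37, 0.021), IFIH1 (0.33, 0.035), SOCS3 (0.32, 0.004), SAMD9 (0.22, 0.0047) and STAT5A (0.20, 0.029). IRF7, at -0.25, was the 1 below 0, with a COMBO rise below the sum (block adjusted p = 0.05 after rounding). Of the 47 members lower in COMBO, 39 had a value above 0, with a median of 0.09, and of all 66 members 48 did, with a median of 0.07. Over all 8579 genes tested, 4454 had a value below 0 and the median was -0.01. The values of all genes lower in COMBO were not computed. Whether smaller falls than the sum are particular to the members thus cannot be read from these counts. IFI44 and ISG20 were near the sum, at 0.00 (SE 0.09, edgeR adjusted p = 1.0) and 0.05 (SE 0.11, adjusted p = 0.95).

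**Figure D5:**
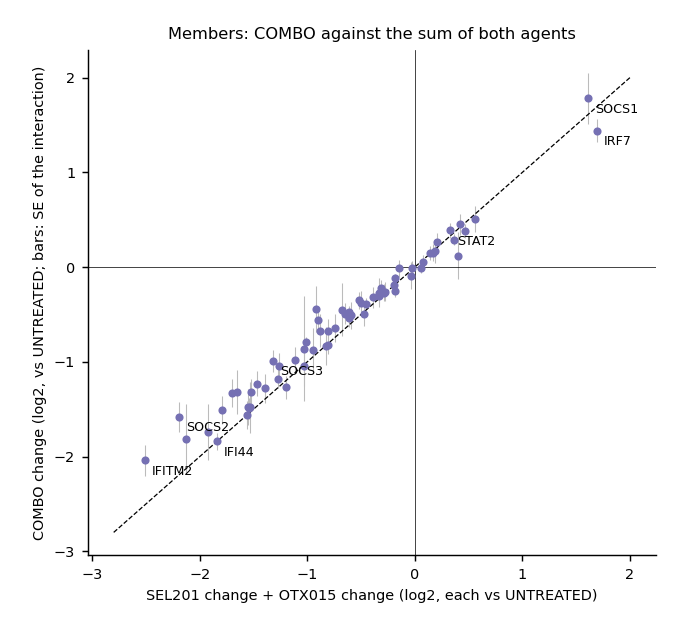
COMBO change of each member (vertical axis, log2) against the sum of the SEL201 and OTX015 changes (horizontal axis, log2), with the SE of the interaction as bars and equality as the dashed line. Both axes use the same UNTREATED libraries. SOCS2 and IFITM2 lie above the line, by 0.61 and 0.47, and IFI44 lies on it.

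Other genes of the pathway, taken from 5 lists, were tested in the same fit. Over all genes tested, COMBO called 29.6% lower and 28.3% higher, OTX015 24.7% and 23.3%, and SEL201 11.1% and 10.1%. Whether the counts of a list differ from these shares was not tested. Of 13 genes that sense nucleic acids or carry the signal towards interferon genes, 6 fell and 2 rose with COMBO, 5 and 2 with OTX015, and 2 and 1 with SEL201. TMEM173, or STING, the adaptor of cytoplasmic DNA sensing, changed by -2.27 log2 units (SE 0.07, edgeR adjusted p = 2.3e-11), from 204 ± 7.65 to 42.4 ± 1.54 CPM (SD, n = 3), and TLR3, the endosomal sensor of double-stranded RNA, by -1.56 (SE 0.08, edgeR adjusted p = 1.3e-09). The mitochondrial regulator NLRX1 changed by -0.44 log2 units (SE 0.05, edgeR adjusted p = 4.5e-06), and RIPK1, a kinase of the death receptor and RNA sensing pathways, by 0.28 (SE 0.03, edgeR adjusted p = 6.2e-06). Of 12 further interferon-stimulated genes, 8 fell and 1 rose with COMBO and with OTX015, and 2 and 1 with SEL201. BATF2 changed by -1.52 log2 units (SE 0.12, edgeR adjusted p = 1.4e-07), TRIM38 by -0.74 (SE 0.06, edgeR adjusted p = 1.7e-07) and C19orf66, an inhibitor of viral frameshifting, by -0.54 (SE 0.08, edgeR adjusted p = 2.8e-05). FAM46A, a poly(A) polymerase family gene, was the 1 that rose, by 1.07 log2 units (SE 0.09, edgeR adjusted p = 1.8e-07).

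All 8 measured genes of MHC class I and peptide loading fell with COMBO, 7 with OTX015 and 3 with SEL201. These genes cut peptides and load them for display to T cells. Of all genes tested, 29.6%, 24.7% and 11.1% fell in the same order. The immunoproteasome subunits PSMB8 and PSMB9 changed by -0.90 log2 units (SE 0.07, edgeR adjusted p = 6.9e-08) and -0.51 (SE 0.08, edgeR adjusted p = 8.1e-05). The peptide-trimming enzyme ERAP2 changed by -1.49 log2 units (SE 0.12, edgeR adjusted p = 1.1e-07) and the transporter subunit TAP2 by -0.53 (SE 0.05, edgeR adjusted p = 8e-07). NLRC5, given above, did not pass the threshold.

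Of 18 cytokine receptors that use JAK kinases, 10 fell and 5 rose with COMBO, 9 and 3 with OTX015, and 2 and 2 with SEL201. The rises with COMBO were near the share of all genes (28.3%). Both SEL201 counts were also near it (11.1% lower and 10.1% higher). IL7R, the interleukin 7 receptor alpha chain, changed by -4.24 log2 units (SE 0.14, edgeR adjusted p = 3e-11), from 437 ± 48.9 to 23.2 ± 1.28 CPM (SD, n = 3), more than any member. IL27RA, the receptor chain for interleukin 27, changed by -1.31 log2 units (SE 0.04, edgeR adjusted p = 3.3e-11). LIFR and LEPR, receptors for leukaemia inhibitory factor and leptin, rose by 0.80 log2 units (SE 0.06, edgeR adjusted p = 1.1e-07) and 0.82 (SE 0.07, edgeR adjusted p = 4.1e-07). Among 10 adaptors, regulators and target genes of the pathway, 4 fell and 4 rose with COMBO and with OTX015, and 2 and 2 with SEL201. Of all genes, 29.6% fell and 28.3% rose with COMBO, 24.7% and 23.3% with OTX015, and 11.1% and 10.1% with SEL201. PDLIM2, which promotes the breakdown of STAT4, changed by -1.68 log2 units (SE 0.12, edgeR adjusted p = 4.6e-08). CISH changed by -1.15 log2 units (SE 0.16, edgeR adjusted p = 2.5e-05), from a mean of 8.63 CPM in UNTREATED to 3.86 in COMBO. BCL6, a transcriptional repressor, and the endosomal adaptor STAM2 rose by 0.87 log2 units (SE 0.06, edgeR adjusted p = 6.4e-08) and 0.37 (SE 0.05, edgeR adjusted p = 1.3e-05).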

How the data were processed

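RNA of 12 A375 libraries was measured by stranded poly(A) sequencing. The authors deposited raw read counts per gene symbol for 8579 genes, and all 12 columns matched a sample title. Per the submitters' processing notes, the tools were STAR 2.5.4b, featureCounts, SAMtools 1.9, Trimmomatic, FastQC and DESeq2, and the build was hg19. For annotation, strand setting and multi-mapping reads, nothing is given in the sources used here. Under R 4.3.3, counts were fitted by the quasi-likelihood test of edgeR 4.0.16 (filterByExpr, TMM scaling, Benjamini-Hochberg over all 8579 genes, threshold 0.05) over all 12 libraries without a block. CPM uses the TMM-scaled totals. The code was tested on simulated counts.

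Same-numbered libraries deviated together (correlations 0.27 to 0.58 over 18 pairs, against -0.47 to 0.20 for 36 other pairs), so the numbers pair the samples, and a fit with the number as a block was also run. No 2 libraries agreed within sampling noise. The members and lists were chosen with earlier results of these data known. Named with all libraries were the measured core signalling genes and, per role, up to 3 called members with the largest COMBO change, and for each list of other genes up to 4 with the lowest COMBO p. DESeq2 1.42.0, RLE scaling, other filters, only the compared groups and left-out libraries were alternatives. Figures used matplotlib 3.10.9. RefSeq promoter windows are on GRCh38.p14, another build than the counts.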

Additional observations from a re-analysis of the deposited data

How the results depend on the processing

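Over the 66 members, 7 comparisons and all alternatives, 5777 of 6308 values kept their direction and side of the threshold, 218 others differed in sign with neither value past it, 141 gained a call, 172 lost one, and none reversed a call. The replicate block, which used the paired numbers, gained 63 calls and lost none. With it, SEL201 against UNTREATED had 36 lower and 6 higher members (main values 20 and 3). COMBO against OTX015 had 16 lower and 5 higher (3 and 3). OTX015 against SEL201 had 5 higher (2), and the interaction 7 above and 1 below 0 (none). In this order, the counts are 54.5%, 9.09%, 24.2%, 7.58%, 7.58%, 10.6% and 1.52% of members. Of all genes, the block called 19.1%, 18.0%, 12.2%, 10.0%, 18.7%, 4.02% and 2.73%. The block called more genes in general (SEL201 lower, 19.1% of all genes against 11.1% without it), moved no other comparison's member count by over 1.5 times and lost no call. DESeq2 gave 6 lower in COMBO against OTX015, 4 higher in OTX015 against SEL201 and 2 above 0 in the interaction. Without the libraries numbered 3, SEL201 had 6 higher. For this fit and those without 1 library, the share of all genes was not computed. Leaving out 1 library, SEL201 against UNTREATED had 1 to 3 higher and 11 to 19 lower, COMBO against OTX015 1 to 3 higher, and OTX015 against SEL201 1 to 2 higher. The interaction had none in each of these fits. The cause of these shifts was not tested. Counts were lowest for GBP3, BST2, OASL, SOCS1 and TRIM22, at 43 to 68 in their lowest library.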

Other observations

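Many members lie side by side in the genome. In the RefSeq order of protein-coding genes, 19 of the 66 members form 9 runs of neighbours: GBP3, GBP1 and GBP2; IFIT2 and IFIT3; STAT5B and STAT5A; SP140L and SP100; APOL2 and APOL1; PARP9 and DTX3L; HERC6 and HERC5; DDX60 and DDX60L; and SAMD9 and SAMD9L. All 19 fell with COMBO, where 71.2% of the 66 members and 29.6% of all genes tested were lower. Whether position in the genome plays a part was not tested. The sizes within a run differed for STAT5A and STAT5B, at log2 changes of -1.32 and -0.25, and for HERC5 and HERC6, at -1.04 and -0.38. They were closer for the GBP genes, at -1.56 for GBP1, -1.23 for GBP2 and -1.74 for GBP3. Most of these neighbours are paralogs, which can share reads.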
